A study of Homo sapiens with 48 samples.

Results

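The joint action of EGF and angiotensin II (AII) after 6 h was examined in HEK293 cells, a human embryonic kidney line, as a 2 × 2 comparison of 16 libraries out of the 48 of the series. The cells came from 1 clone that stably expresses AT1R, the type 1 angiotensin II receptor, and all groups were kept without serum, including the control. The groups were 4 libraries without stimulus (control), 3 with 10 µg/L EGF, 5 with 1 nM AII and 4 with AII + EGF, each for 6 h. Poly(A) RNA was sequenced. The deposited fragment counts of Ensembl genes were scaled to the library total times its TMM normalization factor (counts per 1 M, CPM). The labels give 24 libraries at 6 h, of which 8 were left out: 6 because their counts were near-identical to those of another library, and 2 because their expression values went against their labels.

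EGF binds the receptor tyrosine kinase EGFR, which signals through RAS and the kinase ERK, whereas AII binds the G-protein-coupled receptor AT1R, which raises calcium through Gq and also activates ERK. Both routes reach the serum response factor SRF, which drives immediate-early genes with its TCF partners and cytoskeletal genes with its MRTF partners. Immediate-early genes code mostly for transcription factors of the AP-1 and EGR families and for synaptic proteins such as ARC. Synergy was measured on both scales on which it can be defined. On the log2 scale the interaction is the log2 change under AII + EGF minus the changes under EGF and under AII, and it is 0 where both single fold changes multiply to the joint one, called the product below. On the linear scale the excess is the joint mean minus the sum EGF + AII − control, in CPM.

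The result depends on which libraries are taken as labelled. Among all 1128 pairs of the 48 libraries, 4 pairs had a chi-square per degree of freedom under 1, between 0.397 and 0.505, so that they differed by less than the sampling of reads gives. They joined EGF 6 h replicate 1 with AII + EGF 6 h replicate 4, EGF 6 h replicates 2 and 6 with each other, and control 6 h replicates 1 and 2 with libraries labelled 24 h. The closest pair among the 16 libraries used, AII replicates 1 and 2, reached 2.02. With TMM factors over all 24 libraries at 6 h, the library labelled AII replicate 6 held 85.9 CPM of ARC. The library labelled AII + EGF replicate 6 held 7.32 CPM. These last 2 libraries were set aside for such values, so that the 16 libraries are in part a choice by outcome, and the gene counts and the values of ARC are given with and without it. With all 24 libraries as labelled, edgeR's quasi-likelihood test called 0 genes for the log2 interaction (863 at an unadjusted p under 0.05; DESeq2 called 2) and the linear test called 0 (963 at an unadjusted p under 0.05). Titles run in consecutive stretches that pass through the 4 treatments, and among the 16 libraries used only 2 of these stretches, runs 4 and 5, keep all 4 groups. The 11 libraries of these runs include neither doubtful library. They gave 74 genes on the log2 scale and 238 on the linear scale, and with AII + EGF replicate 4 put back 2 and 46.

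The 16 libraries held 17.8 to 29.96 M counts, with at least 28 M under EGF and at most 26.5 M in the other groups, and the part of this difference in the results was not tested. Of 60610 listed genes, 17788 had enough counts to be tested. All 9 HEK293 line genes were detected, whereas 7 of 9 kidney segment markers never reached 1 CPM and UMOD and AQP2 had no count. In bulk RNA, fewer cells of a kind and less RNA per cell cannot be told apart. CPM is not corrected for gene length, so levels are compared between groups and not between genes. Nothing in the labels says that libraries of a group are separate cultures, and p-values then measure the spread between these libraries.

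Both stimuli together moved a small set of genes away from the product of the single effects. Calls needed a Benjamini-Hochberg adjusted p below 0.01, a deviation of 1.5-fold or more and 1 group mean above 5 CPM. By edgeR's quasi-likelihood test, 47 genes were higher than the product (0.264% of the tested genes) and 62 were lower (0.349%). Of the 47 higher genes, 43 also rose under AII + EGF against control, where 7.12% of all tested genes rose, and 27 of the 47 changed by less than 1.5-fold under each stimulus alone. The share of all tested genes that changed so little under each stimulus alone is not given. The median log2 change of the 47 genes was 0.475 under EGF, 0.136 under AII and 1.53 under AII + EGF. Of the 62 lower genes, 41 fell under AII + EGF against control (6.71% of all tested genes fell), 6 rose and 15 were called neither way. Their median log2 change was −0.22 under EGF, 0.0705 under AII and −0.911 under AII + EGF. The changes under each stimulus and under both enter the interaction on which these genes were chosen, in the same libraries. These shares and medians therefore describe the chosen genes and are no separate evidence.

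**Figure D1:**
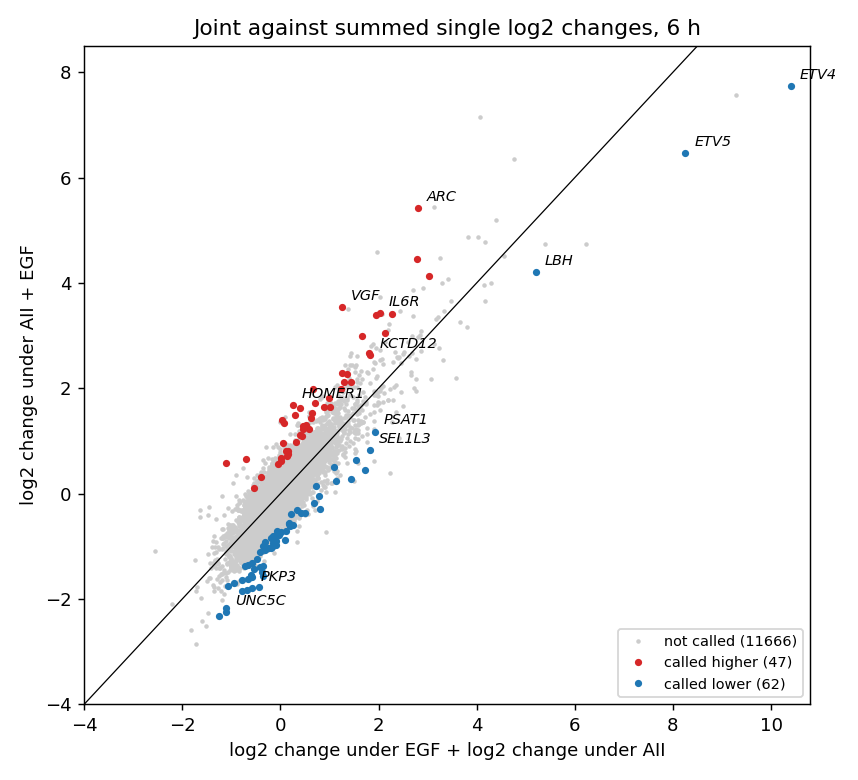
Log2 change under AII + EGF (vertical axis) against the sum of the log2 changes under EGF and AII (horizontal axis) for genes with a group mean above 5 CPM, 6 h, 16 libraries. The line marks a joint change equal to that sum; 47 called genes (red) lie above it, among them ARC, and 62 (blue) lie below it, which include ETV4 and ETV5 far to the right and genes that fell, such as UNC5C.

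Measured against the sum, more genes lay above than below. The linear test called 176 genes above the sum (0.989% of the tested genes) and 38 below it (0.214%). Of the 47 genes higher than the product, 46 were above the sum, and of the 62 lower genes 30 were below it. ETV4 and ETV5 were lower than the product and yet above the sum. A further 128 genes were above the sum without a call on the log2 scale. Their median log2 change was 0.866 under EGF, 0.421 under AII and 2.02 under AII + EGF. Where both single changes go the same way, the product is larger than the sum. A call above the sum can therefore occur without any interaction on the log2 scale. The median ratio of the joint mean to the sum was 1.86 over the 176 genes and 0.569 over the 38. The 4 AII + EGF libraries lay above all 12 others for 44 of the 47 higher genes (9.55% of the tested genes) and below all others for 47 of the 62 lower genes (8.9%), which describes genes chosen on the same libraries.

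**Figure D2:**
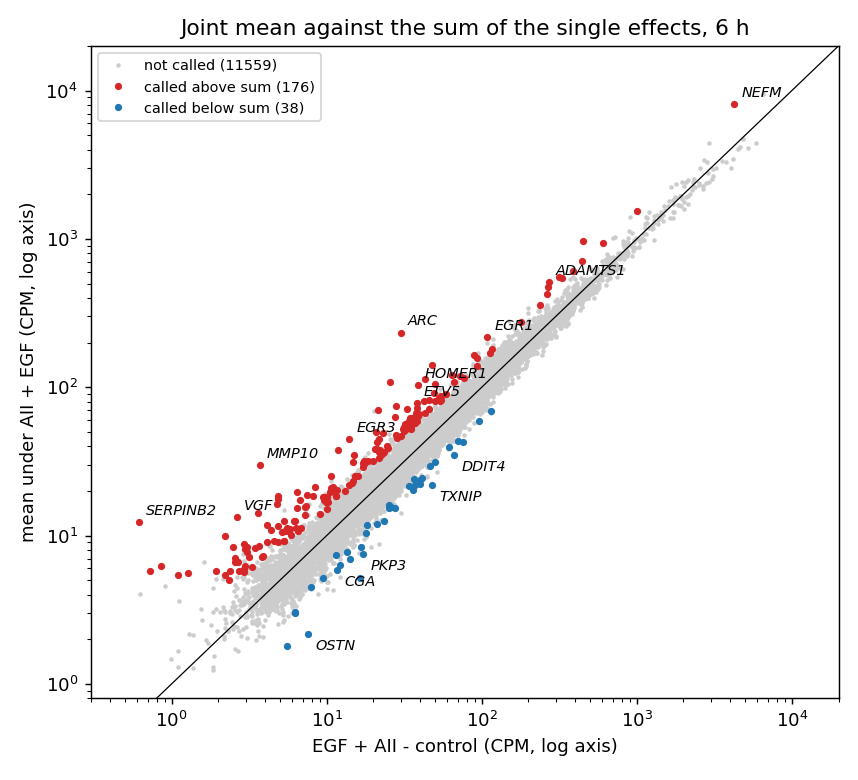
Mean under AII + EGF (vertical) against EGF + AII − control (horizontal), both in CPM on log axes, 6 h, for genes with a group mean above 5 CPM and a sum above 0.1 CPM. The line marks equality; 176 called genes (red) lie above the sum, with ARC at 233.6 CPM, and 38 (blue) lie below it.

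These counts depended on single libraries and on the runs. Leaving out 1 EGF library left 41 (without EGF replicate 3), 35 (without replicate 4) or 39 (without replicate 5) genes on the log2 scale, and the linear count fell to 133 and 139 without EGF replicates 3 and 4. The log2 count was 66 and 51 without AII + EGF replicates 1 and 3 and 69 without AII replicate 5. Other fits gave more genes on the log2 scale, 219 with title runs as a block (101 of them among the 109) and 231 by DESeq2 (105 among the 109). The first stretch of titles gives only AII and AII + EGF libraries to the 16, since its control and EGF libraries were left out as near-identical to others, and without it 21 genes were called on the log2 scale, of which 20 were among the 109, and 131 on the linear scale, of which 105 were among the 214. Within title runs 4 and 5, 43 of the 74 log2 calls and 152 of the 238 linear calls were shared with the 16 libraries.

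ARC, the activity-regulated cytoskeletal protein of synapses and an SRF target, had the highest interaction of all called genes. ARC (ENSG00000198576) lies on chromosome 8 at 142611049 to 142614479 of GRCh38. It had 4.87, 4.87, 5.89 and 6.28 CPM in the control libraries and 6.13, 6.82, 7.11, 8.23 and 9.05 CPM under AII. Under EGF it had 26.2, 28.4 and 29.2 CPM, and under AII + EGF 212, 217, 252 and 253 CPM. The AII and control libraries overlap at their edges, the EGF libraries lie above both, and the joint libraries lie far above every other library. The mean was 5.48 ± 0.72 CPM in control (SD, n = 4), 27.95 ± 1.58 CPM under EGF (n = 3), 7.47 ± 1.16 CPM under AII (n = 5) and 233.6 ± 22.3 CPM under AII + EGF (n = 4). The joint mean exceeded the sum of the single effects, 29.9 CPM, by 203.6 ± 11.2 CPM (SE, adjusted p 3.16e-12 by the linear negative binomial test). The log2 interaction was 2.62 ± 0.165 (SE, adjusted p 3.82e-08, edgeR), so that the joint fold change was 6.14 times the product of the single fold changes. Within title runs 4 and 5 the ARC interaction was 2.64 ± 0.19 (edgeR adjusted p 5.67e-06) and the excess 201.6 ± 19.2 CPM, and with all 12 libraries of these runs as labelled 2.44 ± 0.28 (edgeR adjusted p 0.00265). With all 24 libraries as labelled the interaction was 0.46 ± 0.96 (edgeR adjusted p 0.97) and the excess 124.6 ± 45.8 CPM (adjusted p 0.882). The left-out libraries labelled EGF replicate 1 and AII + EGF replicate 4, which are near-identical, had 143.6 and 144.3 CPM (TMM factors over all 24 libraries at 6 h).

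**Figure D3:**
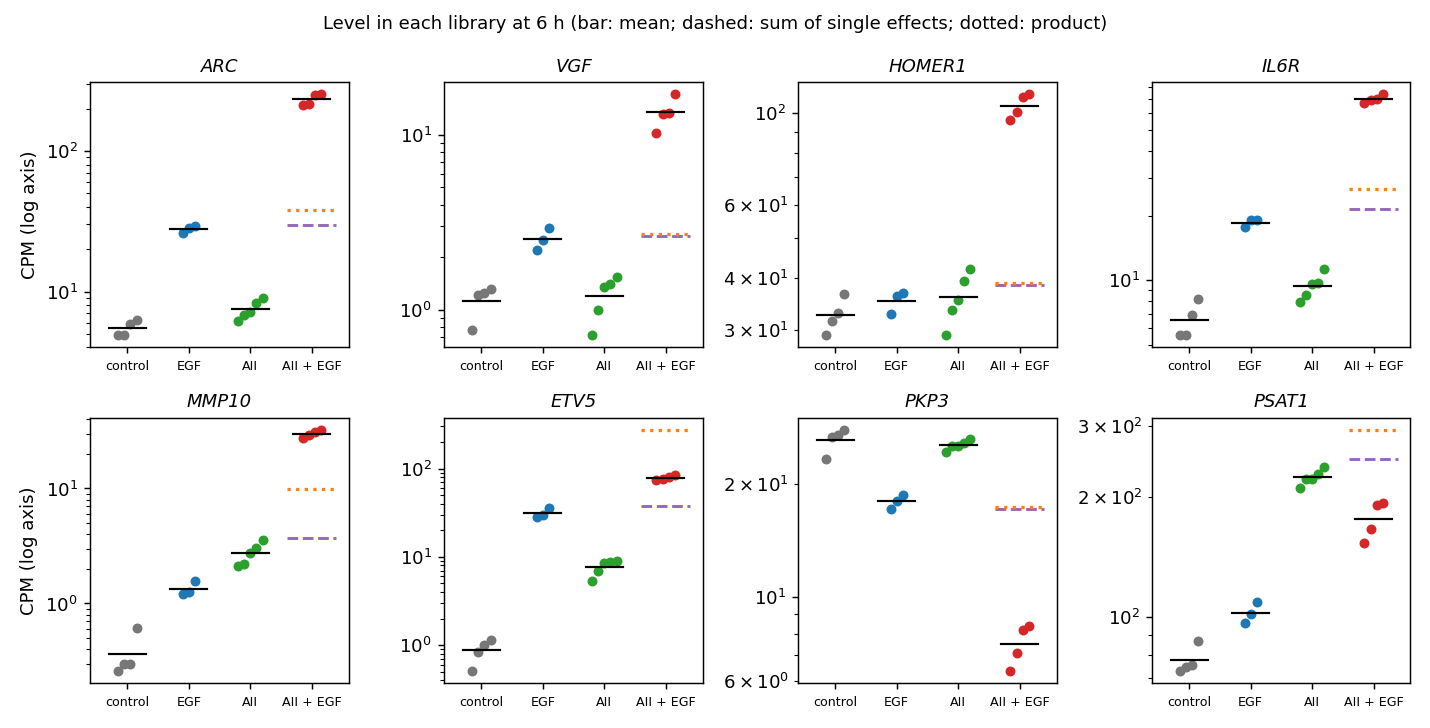
CPM (log axis) in each of the 16 libraries at 6 h for 8 genes, by group (points: libraries; black bar: group mean; purple dashes: EGF + AII − control; orange dots: EGF × AII / control). The AII + EGF libraries lie above both references for ARC, VGF, HOMER1, IL6R and MMP10, between them for ETV5, and below both for PKP3 and PSAT1.

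**Figure D4:**
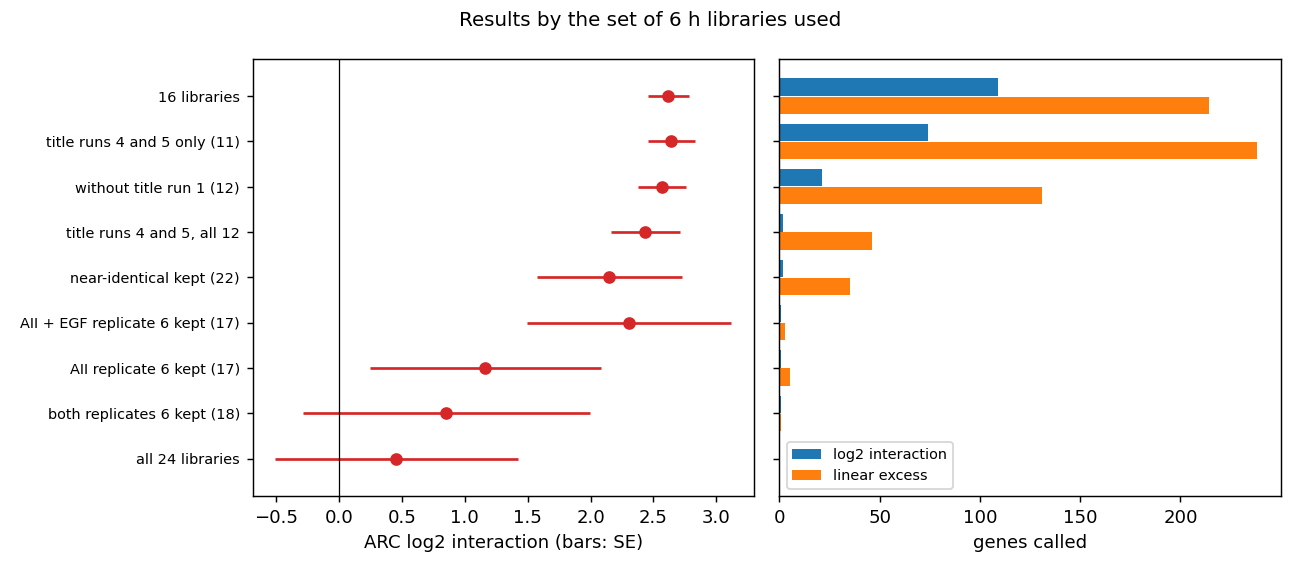
ARC log2 interaction with its SE (left) and number of genes called on each scale (right) for 9 sets of 6 h libraries, with the number of libraries in brackets. ARC lies between 2.44 and 2.64 in the 4 upper sets and at 0.46 with all 24 libraries, where 0 genes were called.

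Of 23 tested genes of the immediate-early SRF-TCF list, 3 were higher than the product (ARC, ATF3 and JUNB), 0 were lower, and 11 were above the sum. Of all tested genes, 0.264% were higher, 0.349% lower, 0.989% above the sum and 0.214% below it, and 7.12% rose under AII + EGF. Counts for this and each later list stand against these shares. Over the list the median log2 interaction was 0.613, beside −0.00521 over all tested genes, and 17 of its genes rose under AII + EGF. Of the 6 SRF targets that the study followed, all rose under AII + EGF and 4 were above the sum. The study chose these 6 genes itself, so their direction is not independent evidence.

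EGR1, a zinc finger transcription factor and the archetype of these genes (chromosome 5, 138465479 to 138469303), had 4.28, 6.41, 6.43 and 6.58 CPM in control and 5.95, 6.28, 6.4, 6.99 and 8.23 CPM under AII. EGF alone brought it to 105.1, 106.2 and 112.7 CPM and AII + EGF to 180.0, 201.0, 229.2 and 260.9 CPM. EGF alone thus separates EGR1 from control, AII overlaps with control, and the joint libraries lie above all others. The excess over the sum was 108.9 ± 17.7 CPM (SE, adjusted p 7.27e-05, linear test), whereas the log2 interaction of 0.81 ± 0.19 did not pass (edgeR adjusted p 0.0269). EGR3 (chromosome 8, 22687659 to 22693480) had 1.52 ± 0.29 CPM in control, 12.5 ± 0.26 under EGF, 3.04 ± 0.51 under AII and 44.7 ± 1.51 under AII + EGF (SD, n = 4, 3, 5 and 4), an excess of 30.7 ± 0.82 CPM (SE). EGR2 reached 8.32 ± 0.81 CPM under AII + EGF (SD, n = 4), 2.73 times its sum. Of the other 2 targets, FOS, a subunit of AP-1, had an excess of 4.18 ± 1.09 CPM (SE, adjusted p 0.0228, linear test) and the growth factor gene TGFB1 one of 11.3 ± 3.96 CPM (adjusted p 0.62), and neither was called. TGFB1 had a log2 interaction of −0.45 ± 0.28 (edgeR adjusted p 0.457).

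JUNB, a subunit of AP-1, the dimeric factor of JUN and FOS proteins, ranged from 8.97 to 15.5 CPM in control, 21.9 to 26.6 under EGF, 14.5 to 17.5 under AII and 52.8 to 68.2 under AII + EGF. Its joint libraries lie above all others (log2 interaction 1.04 ± 0.18, edgeR adjusted p 0.00425). Of 13 tested AP-1 subunits 4 were higher than the product (ATF3, FOSL2, JUN and JUNB), 5 were above the sum and 0 were below either, with a median log2 interaction of 0.408. FOSL2 had means of 22.8, 28.4, 26.3 and 56.3 CPM in control, EGF, AII and AII + EGF. JUN and ATF3 were called without a called change between AII + EGF and control. JUN had 429.2 to 589 CPM in control, 410.3 to 425.4 under EGF, 404.6 to 431.7 under AII and 496.3 to 579.2 under AII + EGF, so that the joint libraries overlap with control and the means under each stimulus alone were lower (interaction 0.66 ± 0.12, joint log2 change 0.11, edgeR adjusted p 0.302). The interaction call of JUN was lost in 12 of the 16 fits that left out 1 library. ATF3 had means of 94.6, 97.0, 69.9 and 118.3 CPM in control, EGF, AII and AII + EGF, with AII libraries below all controls. Its joint libraries lie above all controls and overlap with EGF. Its joint log2 change of 0.32 passed the p threshold (edgeR adjusted p 0.00555) but was below the 1.5-fold minimum. MAFF, a small MAF protein, was above the sum (15.5 CPM, 2.15 times its sum) and had a log2 interaction of 0.96 (edgeR adjusted p 0.0106). IER3, an early response survival gene, CSRNP1, a nuclear protein, and the orphan nuclear receptors NR4A1 and NR4A3 were above the sum by 1.68 to 2.06 times, without a call on the log2 scale.

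Other genes with high interactions did not belong to the SRF lists. VGF, which codes for a neuropeptide precursor (chromosome 7, 101162509 to 101169952), had 0.769, 1.21, 1.25 and 1.31 CPM in control, 2.22, 2.51 and 2.95 under EGF, 0.718, 1.01, 1.36, 1.41 and 1.54 under AII and 10.2, 13.1, 13.3 and 16.96 under AII + EGF. The AII libraries overlap with control, the EGF libraries lie above it, and every joint library exceeded 10 CPM. Its log2 interaction was 2.30 ± 0.32 (edgeR adjusted p 0.000801). HOMER1, a postsynaptic scaffold protein (chromosome 5, 79372636 to 79514134), had 29.1, 31.5, 32.9 and 36.7 CPM in control, 32.7, 36.2 and 36.7 under EGF, 29.1, 33.6, 35.5, 39.4 and 42.01 under AII and 95.98, 100.3, 108.8 and 110.6 under AII + EGF. The 3 groups without both stimuli overlap and the joint group stands apart (log2 interaction 1.42 ± 0.14, edgeR adjusted p 7.03e-05). IL6R, the ligand-binding chain of the interleukin 6 receptor, had 5.53 to 8.14 CPM in control, 17.7 to 19.04 under EGF, 7.95 to 11.3 under AII and 67.3 to 73.6 under AII + EGF, an excess of 48.7 ± 1.62 CPM (SE). EMP1, a membrane protein of epithelia, had means of 2.46, 5.11, 3.78 and 19.8 CPM in control, EGF, AII and AII + EGF (log2 interaction 1.35 ± 0.23, edgeR adjusted p 0.00375).

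ISM1, a secreted inhibitor of angiogenesis, had 0.256 to 0.598 CPM in control and 9.67 to 10.2 under AII + EGF, with 1.94 CPM under EGF and 0.738 under AII as means. Its log2 interaction was 1.66 ± 0.29 (edgeR adjusted p 0.00439), a call lost in 7 of the 16 fits that left out 1 library. CBFA2T3, a transcriptional corepressor, and SERTAD1, a coregulator that binds CDK4, had log2 interactions of 1.45 ± 0.25 and 1.37 ± 0.26. SERTAD1 was called in 5 of the 16 fits that left out 1 library. The long non-coding AL031985.3 had 7.05 CPM under AII + EGF and 3.38 to 4.48 CPM as means of the other groups. SMN1 was also called (1.71 ± 0.30, edgeR adjusted p 0.00425), but it is nearly identical to SMN2, which had an interaction of 1.25 ± 0.26 (edgeR adjusted p 0.0132), and how reads were split between them is not stated. SMN1 varied from 51.5 to 94.1 CPM between control libraries, and its joint libraries, at 87.9 to 130 CPM, overlap with them.

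Of 13 tested targets of cAMP and CREB, 2 were higher than the product (VGF and NPTX2) and 4 were above the sum (also NR4A1 and NR4A3). NPTX2, a secreted synaptic pentraxin, had means of 10.9, 20.6, 11.4 and 38.3 CPM in control, EGF, AII and AII + EGF, and its interaction call was lost in 8 of 16 fits that left out 1 library. CGA, the shared alpha subunit of glycoprotein hormones (chromosome 6, 87085498 to 87095106), took the opposite course. It had 0.82, 1.1, 1.17 and 1.95 CPM in control, 1.6, 1.63 and 1.98 under EGF, 8.17, 8.52, 12.45, 13.3 and 13.5 under AII and 4.79, 5.22, 6.42 and 6.99 under AII + EGF. Among the 16 libraries, each joint library lies below each AII library and above each control. The joint mean fell short of the sum by 5.80 ± 1.31 CPM (SE, adjusted p 0.00447, linear test). This call was lost in 7 of 16 fits that left out 1 library. The log2 interaction, −1.38 ± 0.33, was not called (edgeR adjusted p 0.0342). The left-out libraries labelled AII replicate 6 and AII + EGF replicate 6 held 14.7 and 15.6 CPM of CGA (TMM factors over all 24 libraries at 6 h). At 24 h its interaction was 0.95 ± 0.43 (edgeR unadjusted p 0.0378) and was not called.

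The start regions of 5 of these genes are shown because they carry the letters of sites that bind SRF (CArG box), CREB (TGACGTCA), AP-1 (TGANTCA) or EGR proteins (GCGNGGGCG). Each runs from 250 bases before to 50 after an annotated start, on the strand of the gene, from RefSeq on GRCh38.p14. Matches on either strand are in capitals. The VGF region lies inside the span given for that gene, 101162509 to 101169952, so its start is not the outer end of the span. The 5 genes were chosen after their values and matches were seen. The regions are chr5:138465229-138465528, plus strand of EGR1, chr7:101165520-101165819, minus strand of VGF, chr6:87095057-87095356, minus strand of CGA, chr11:102780579-102780878, minus strand of MMP10, chr18:63887455-63887754, plus strand of SERPINB2.
EGR1: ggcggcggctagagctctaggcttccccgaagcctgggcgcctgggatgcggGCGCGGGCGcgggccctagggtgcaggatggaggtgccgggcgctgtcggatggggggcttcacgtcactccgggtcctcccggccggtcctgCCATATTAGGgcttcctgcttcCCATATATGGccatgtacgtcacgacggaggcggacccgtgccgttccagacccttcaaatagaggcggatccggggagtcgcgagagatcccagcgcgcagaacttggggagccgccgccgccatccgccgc
VGF: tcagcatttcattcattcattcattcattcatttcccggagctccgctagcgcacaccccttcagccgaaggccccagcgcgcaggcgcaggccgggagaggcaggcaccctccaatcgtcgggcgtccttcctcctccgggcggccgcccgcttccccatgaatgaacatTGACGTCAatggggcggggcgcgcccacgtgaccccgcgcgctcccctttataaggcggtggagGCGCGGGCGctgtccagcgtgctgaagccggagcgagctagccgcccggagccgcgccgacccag
CGA: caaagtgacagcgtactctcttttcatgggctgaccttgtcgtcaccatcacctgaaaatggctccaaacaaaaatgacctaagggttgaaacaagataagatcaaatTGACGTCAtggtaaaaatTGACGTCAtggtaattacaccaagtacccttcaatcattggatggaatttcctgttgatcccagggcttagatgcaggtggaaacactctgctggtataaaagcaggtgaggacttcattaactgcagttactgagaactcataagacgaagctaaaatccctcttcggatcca
MMP10: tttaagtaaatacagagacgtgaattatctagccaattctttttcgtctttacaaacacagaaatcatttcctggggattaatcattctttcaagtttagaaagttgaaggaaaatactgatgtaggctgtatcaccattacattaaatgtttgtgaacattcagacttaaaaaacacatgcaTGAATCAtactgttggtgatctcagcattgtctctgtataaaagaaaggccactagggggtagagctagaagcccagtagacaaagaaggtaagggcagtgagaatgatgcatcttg
SERPINB2: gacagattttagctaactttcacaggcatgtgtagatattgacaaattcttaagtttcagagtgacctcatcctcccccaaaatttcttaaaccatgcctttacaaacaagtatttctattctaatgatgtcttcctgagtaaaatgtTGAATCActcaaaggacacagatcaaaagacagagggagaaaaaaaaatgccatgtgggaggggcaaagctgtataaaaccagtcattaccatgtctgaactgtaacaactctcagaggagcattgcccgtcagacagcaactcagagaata
EGR1 holds 2 CArG boxes and 1 GCGNGGGCG. VGF, above the sum, holds 1 TGACGTCA and 1 GCGNGGGCG, and CGA, below the sum, holds 2 TGACGTCA. MMP10 and SERPINB2 hold 1 TGANTCA each. Of the 35116 such regions in the reference, 1.29% held a CArG box, 1.85% TGACGTCA, 7.71% TGANTCA and 9.43% GCGNGGGCG. A region was found for 11093 of the 17788 tested genes, of which 1.03%, 3.18%, 4.58% and 15.7% held these motifs. Among the 116 genes above the sum with a region, 2 (1.72%) held a CArG box, 6 (5.17%) TGACGTCA, 15 (12.9%) TGANTCA and 37 (31.9%) GCGNGGGCG. Among the 27 genes below the sum with a region, the numbers were 0, 2, 0 and 7 (25.9%). The motif CCGGAAGT was searched too. It was held by 4.14% of the regions in the reference, 8.26% of those of tested genes, 1 (0.862%) of the 116 and 2 (7.41%) of the 27. Of 30 genes higher than the product with a region, 0 held a CArG box, 2 TGACGTCA, 4 TGANTCA, 9 (30%) GCGNGGGCG and 0 CCGGAAGT. Of 44 lower genes with a region, the numbers were 1, 1, 2, 10 (22.7%) and 2. These shares describe letters in a short window and were not tested, and base composition was not matched.

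Of 10 tested genes of the plasminogen system and matrix proteases, 3 were above the sum (ADAMTS1, MMP10 and SERPINB2), ADAMTS1 was also higher than the product, and 7 rose under AII + EGF. SERPINB2, which codes for the plasminogen activator inhibitor PAI-2 (chromosome 18, 63887705 to 63903888), had 0 to 3 counts in each control library. It had 0.177, 0.363 and 0.467 CPM under EGF, 0.308, 0.337, 0.352, 0.403 and 0.416 under AII and 11.7, 12.1, 12.6 and 12.99 under AII + EGF. Only the joint libraries exceeded 1 CPM, and they exceeded the sum, 0.612 CPM, by 11.8 ± 0.31 CPM (SE, adjusted p 1.82e-10, linear test). MMP10, the metalloprotease stromelysin 2 (chromosome 11, 102770502 to 102780628), had 0.26 to 0.615 CPM in control, 1.2 to 1.56 under EGF, 2.1 to 3.57 under AII and 27.5 to 32.4 under AII + EGF, 8.09 times its sum. ADAMTS1, a protease of the extracellular matrix, was abundant in all groups, with means of 118.6, 204.9, 185.4 and 512.4 CPM in control, EGF, AII and AII + EGF and a log2 interaction of 0.68 ± 0.12 (edgeR adjusted p 0.00457). IL11, a cytokine of the interleukin 6 family, reached 5.42 CPM under AII + EGF, 4.96 times its sum. NTSR1, the neurotensin receptor, and LINC00659, a long non-coding gene that lies next to it on chromosome 20 (62708836 to 62762771 and 62774121 to 62776856), reached 6.21 and 5.80 CPM, 7.31 and 7.97 times their sums. Their joint libraries spread from 3.14 to 9.42 and from 3.94 to 8.80 CPM, and within title runs 4 and 5 the excess of NTSR1 was 2.89 CPM in place of 5.36 CPM.

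Among receptors and ligands, the gene of HB-EGF, a membrane-bound ligand of EGFR, was higher than the product. HBEGF (chromosome 5, 140332843 to 140346603) had 3.01, 3.12, 3.24 and 3.48 CPM in control, 4.29, 4.46 and 4.63 under EGF, 2.65, 2.66, 2.77, 2.79 and 3.39 under AII and 8.54, 8.92, 9.12 and 9.67 under AII + EGF. The AII libraries overlap with control and the joint libraries lie above all others (log2 interaction 1.19 ± 0.16, edgeR adjusted p 0.000801). It was the only gene called among the 9 tested EGF-family ligands and ERBB receptors. EGFR itself rose under AII + EGF, from 18.2 to 44.2 CPM, without a call of the interaction (0.07 ± 0.15). AGTR1, which is the transgene as well as the gene of the cell, rose from 4062 ± 197.2 CPM in control to 9469 ± 299.5 CPM under AII + EGF (SD, n = 4 each), and its excess of 2961 ± 250 CPM (SE, adjusted p 0.00331, linear test) was 1.46 times the sum and below the 1.5-fold minimum. The AT1R transcript level therefore differed between the groups compared, and its part in the other results was not tested.

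Feedback genes of the ERK pathway showed both directions. Of 19 tested genes, 11 rose under AII + EGF, DUSP1 was higher than the product, ETV4 and ETV5 were lower, and 5 were above the sum. DUSP1, a phosphatase of MAP kinases, had means of 22.2, 26.2, 20.9 and 38.98 CPM in control, EGF, AII and AII + EGF, and its interaction call was lost in 13 of the 16 fits that left out 1 library. The phosphatase gene DUSP5 and SPRY2, an inhibitor of receptor tyrosine kinase signals, were above the sum by 1.70 and 1.602 times. ETV5, an ETS factor of the PEA3 group (chromosome 3, 186046314 to 186109089), had 0.512, 0.847, 0.996 and 1.15 CPM in control, 28.2, 29.7 and 36.01 under EGF, 5.26, 6.84, 8.46, 8.77 and 9.05 under AII and 74.5, 76.0, 80.0 and 83.7 under AII + EGF. Its groups do not overlap. The joint mean was 2.06 times the sum, and the log2 interaction was −1.78 ± 0.25 (edgeR adjusted p 0.000933). ETV4, of the same group, had means of 6.18 CPM under EGF, 1.24 under AII and 15.9 under AII + EGF. With 0 to 3 counts in each control library, its fitted interaction of −2.67 ± 0.47 depends on the prior count. LBH, a transcriptional cofactor, had means of 8.75, 32.96, 85.3 and 161.1 CPM in control, EGF, AII and AII + EGF, an interaction of −0.998 ± 0.16 and an excess of 51.7 ± 8.86 CPM that, at 1.47 times its sum, was below the 1.5-fold minimum. LBH was named after its values were seen.

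Most genes lower than the product had their lowest level under AII + EGF. PKP3, the desmosomal protein plakophilin 3 (chromosome 11, 392596 to 404908), had 23.2, 26.6, 26.9 and 27.8 CPM in control, 17.1, 18.03 and 18.6 under EGF, 24.3, 25.2, 25.3, 25.6 and 26.3 under AII and 6.37, 7.11, 8.19 and 8.36 under AII + EGF. The AII libraries overlap with control, the EGF libraries lie below it with a mean of 17.9 CPM, and the joint libraries lie below all others. Its log2 interaction was −1.21 ± 0.13 (edgeR adjusted p 7.18e-05). UNC5C, a netrin receptor, had means of 9.47, 5.98, 7.01 and 1.99 CPM in control, EGF, AII and AII + EGF. INPP5D, the inositol phosphatase SHIP1, FAT4, an atypical cadherin, and SMOC1, a secreted calcium-binding protein, had 8.82, 5.27 and 14.2 CPM under AII + EGF against 30.3, 15.6 and 50.3 CPM in control, with interactions of −1.34, −1.21 and −1.14. INPP5D spread from 16.9 to 37.1 CPM in control, and its call was lost in 8 of 16 fits that left out 1 library. TXNIP, an inhibitor of thioredoxin and of glucose uptake, had 45.7, 55.7, 64.0 and 67.0 CPM in control, 33.8, 35.6 and 39.3 under EGF, 64.0, 64.9, 67.7, 71.9 and 78.9 under AII and 19.2, 21.3, 22.2 and 25.4 under AII + EGF. The interaction of TXNIP was −0.98 ± 0.16 (edgeR adjusted p 0.00299), and it was 0.35 with all 24 libraries as labelled. PPP3CB, a catalytic subunit of calcineurin, was the called gene among 24 tested Gq, calcium and NFAT genes, with means of 54.6, 41.2, 49.5 and 20.3 CPM. The linear calls of TXNIP and PPP3CB were lost in 11 and 13 of 16 fits that left out 1 library. TPM1, a tropomyosin, was the called gene among 26 tested MRTF-SRF cytoskeletal genes (−0.64 ± 0.10), whose median log2 interaction was −0.162. Of these 26 genes, 7 rose and 3 fell under AII + EGF, where 7.12% and 6.71% of all tested genes did. The median log2 change of the list under AII + EGF was 0.228.

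Some other called genes were highest under AII alone. Of the 62 genes lower than the product, 10 were at least 1.5-fold higher under AII, and for 6 of these the joint mean lay below the AII mean. The change under AII enters the interaction with a minus sign, so the choice of genes favours high AII levels. The share of all tested genes that were 1.5-fold higher under AII is not given. PSAT1, an enzyme of serine synthesis (chromosome 9, 78297125 to 78330093), had 73.1, 74.8, 75.5 and 87.1 CPM in control, 96.2, 101.4 and 109 under EGF, 209.8, 220.8, 221.8, 227.7 and 237.1 under AII and 153.2, 166.3, 190.1 and 192.5 under AII + EGF. The joint libraries lie between the EGF and the AII libraries without overlap (log2 interaction −0.74 ± 0.12, edgeR adjusted p 0.00243). DDIT4, an inhibitor of mTORC1, had means of 29.1, 45.6, 50.2 and 34.97 CPM, and THRB, the thyroid hormone receptor beta, 2.22, 2.89, 5.59 and 3.01 CPM in control, EGF, AII and AII + EGF. AMPH, the endocytic protein amphiphysin, was highest under EGF and had 3.76, 5.52, 4.46 and 3.05 CPM in the same order. The interaction calls of DDIT4 and AMPH were lost in 10 and 11 of the 16 fits that left out 1 library. Among the called genes, the lowest ratios to the sum were those of OSTN, a secreted peptide of bone and muscle (0.288), ASB11, a substrate adaptor of a ubiquitin ligase (0.317), and TSC22D3, a glucocorticoid-induced inhibitor of NF-kB (0.321), whose call was lost in 13 of 16 such fits. OSTN had 0.593 to 2.00 CPM in control, 0.654 to 0.826 under EGF, 5.26 to 10.0 under AII and 1.71 to 2.79 under AII + EGF. Of the 38 genes below the sum, 12 were at least 1.5-fold higher under AII alone, a count that the choice of genes favours in the same way.

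Of 22 tested HIF targets 19 rose under AII + EGF, where 7.12% of all tested genes rose. On the log2 scale 0 of them were called (median interaction −0.144). SLC2A1, SLC2A3 and NDRG1 were above the sum by 1.52 to 1.81 times, and the call of SLC2A3 was lost in 13 of 16 fits that left out 1 library. Those of SLC2A1 and NDRG1 were each lost in 6 of these fits. SLC2A1, the glucose transporter GLUT1, had means of 58.7, 173.5, 122.4 and 359.8 CPM in control, EGF, AII and AII + EGF and an interaction of −0.01 ± 0.17 (edgeR adjusted p 0.989). Of 26 tested ATF4 targets, PSAT1 and DDIT4 were lower than the product and 10 genes rose. Of 15 tested FOXO targets TXNIP was lower, and ARRDC4, an arrestin-domain protein related to TXNIP, was above the sum by 1.502 times, a call lost in 8 of 16 such fits. None of the 13 tested TGF-beta ligands and SMAD feedback genes was called on either scale (SKI, a SMAD corepressor, −0.01 ± 0.13, and the receptor TGFBR1, −0.09 ± 0.14). Of the HEK293 line genes NEFM, a neurofilament protein, was above the sum (8096 against 4232 CPM). This call was lost in 7 of 16 fits that left out 1 library. NEFM, at 2329 to 4207 CPM in control, makes up much of the list's summed level. That level was 3200 to 5430 CPM in control and 8030 to 9910 CPM under AII + EGF. The summed fibroblast markers were 23 to 25.2 CPM in control, 28.9 to 35.7 under AII and 18.8 to 24.7 under AII + EGF, with 3 of 6 never at 1 CPM. Of these markers COL3A1, a fibrillar collagen, was below the sum (0.5 times). Endothelial markers summed to at most 1.46 CPM in any library (KDR, a VEGF receptor, is the tested one). The cells came from 1 HEK293 clone, so these markers give transcript levels and no share of fibroblasts or endothelial cells. The presence of other cells was not tested. The kidney genes LRP2 and AQP1, a receptor and a water channel of the proximal tubule, had interactions of −0.30 ± 0.25 and 0.14 ± 0.30.

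At 24 h, in 22 other libraries, no interaction passed. EdgeR called 0 genes of 18703 tested (0%), with 419 at an unadjusted p under 0.05, and DESeq2 called 0. On the linear scale LAMB3, a laminin chain, was the called gene (11.9 CPM against a sum of 4.9 CPM). ARC had 5.73 CPM in control, 18 under EGF, 7.07 under AII and 44.7 under AII + EGF at 24 h. Its interaction was 1.01 ± 0.42 (unadjusted p 0.0221, adjusted p 1 by edgeR). Its excess of 25.4 ± 7.81 CPM (SE) did not pass either (adjusted p 0.368, linear test). VGF had the smallest unadjusted p at 24 h among the genes called at 6 h (interaction 1.84 ± 0.44, p 0.000305, adjusted p 1 by edgeR). Of the 47 genes higher than the product at 6 h, 33 had an interaction above 0 at 24 h, where 49.9% of all genes had one, and their median was 0.113. Of the 62 lower genes, 39 were below 0 at 24 h, with a median of −0.058. In 1 fit over 38 libraries, the difference between the interactions at 6 h and 24 h was called for 1 gene, HOMER1 (1.64 ± 0.22, edgeR adjusted p 1e-04), whose means at 24 h were 30.98, 31.5, 32.3 and 28.4 CPM. For ARC this difference was 1.61 ± 0.54 and did not pass (edgeR adjusted p 0.394).

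**Figure D5:**
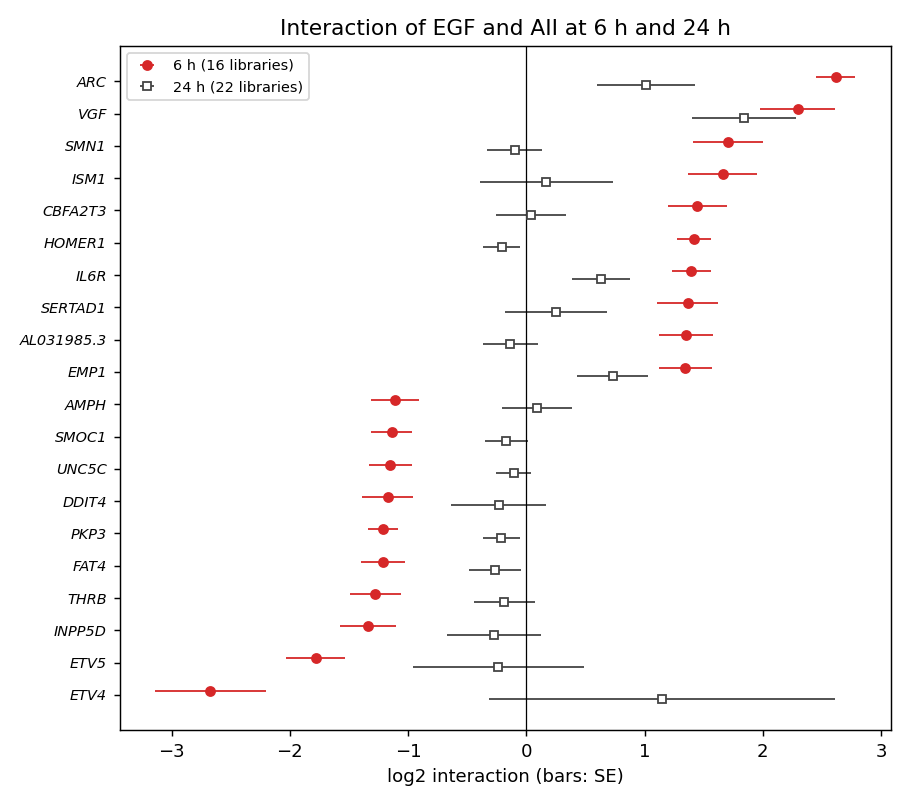
Log2 interaction with its SE at 6 h (red circles, 16 libraries) and 24 h (open squares, 22 libraries) for the 10 highest and 10 lowest called genes of 6 h. The genes were chosen on the 6 h values; at 24 h ARC (1.01), VGF (1.84), IL6R (0.63) and EMP1 (0.73) lie above 0 by more than their SE, and HOMER1 lies at −0.21.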

How the data were processed

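Poly(A) RNA of an AT1R-expressing HEK293 clone was sequenced as paired ends. The authors mapped reads to hg38 with HISAT2 2.1.0 and deposited raw fragment counts per Ensembl gene from featureCounts. Strand and multi-mapping settings are not given in the sources used here, so antisense, overlapping and near-identical genes are uncertain. Groups come from the source names in the labels, and replicate numbers follow deposition order and pair nothing. Counts of the 16 libraries (17.8 to 29.96 M each, which limits precision for genes with few counts) were scaled by TMM and filtered with filterByExpr. The log2 interaction was tested by edgeR 4.0.16 (quasi-likelihood) in R 4.3.3. The excess over the sum was tested by a negative binomial likelihood ratio with group means on the linear scale and the edgeR dispersions. Both were checked on simulated data. P-values were adjusted by Benjamini-Hochberg over all tested genes, with the thresholds 0.01, 1.5-fold and 5 CPM. SEs of the excess come from the 4 group variances.

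The members, lists and tests were chosen with earlier results of these data known. Named genes were the 10 highest and 10 lowest called interactions, the 8 highest and 4 lowest called ratios to a sum above 0.5 CPM, the study's SRF targets, the receptor and ligand genes, and the called members of each other list or, failing these, its 2 members with the highest joint mean. Positions and start regions come from RefSeq on GRCh38. Alternatives were RLE factors, other filters and thresholds, DESeq2 1.42.0, robust estimates, title runs as a block, 24 h libraries in the fit, other library sets and leaving out each library. Of these, the fits without title run 1, with all 12 libraries of runs 4 and 5, with 1 doubtful library each, of all 24 libraries by DESeq2, and without a CPM minimum at 24 h were chosen after seeing the data. A few marker genes are not reported here.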

Additional observations from a re-analysis of the deposited data

Results flagged for a closer look

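Among 201 groups of values of the 67 named genes, 14 held 1 library far from the others of its group by Dixon's test, and chance alone gives about 1 in 20. In control, EGR1 (4.28 CPM, others 6.41 to 6.59) and SLC2A3 (1.74 CPM, others 4.68 to 4.98) were low in replicate 6, MMP10 was high in replicate 5 (0.615 CPM) and PSAT1 in replicate 3 (87.1 CPM). Under AII, replicate 2 was high for ISM1 (0.975 CPM) and HBEGF (3.39 CPM) and low for DUSP5 (3.54 CPM), replicate 3 was high for NPTX2 (12.8 CPM) and replicate 5 for AMPH (4.92 CPM). Under AII + EGF, replicate 1 was low for SERTAD1 (8.78 CPM, others 11.4 to 11.7), replicate 2 for AGTR1 (9020 CPM) and KDR (0.102 CPM), and replicate 3 for SLC2A3 (25.7 CPM, others 33.4 to 33.9) and NDRG1 (484 CPM, others 637 to 665).

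In 8 libraries left out of the comparison, the controls included, ARC exceeded the highest control used, 6.28 CPM. It had 12.4 and 6.78 CPM in control replicates 1 and 2, 144 CPM in EGF replicate 1 and in AII + EGF replicate 4, 22.2 and 22.4 CPM in EGF replicates 2 and 6, 85.9 CPM in AII replicate 6 and 7.32 CPM in AII + EGF replicate 6.

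HOMER1 differed between the times, with an interaction at 6 h that exceeded the one at 24 h by 1.64 on the log2 scale.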

How the results depend on the processing

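The direction of the ARC interaction was the same under every alternative run, and its call was lost only where doubtful or near-identical libraries were kept. Leaving out 1 library gave 35 to 115 genes on the log2 scale and 133 to 221 on the linear scale, an ARC interaction of 2.55 to 2.70 and an ARC excess of 198.5 to 211.1 CPM, and 0 genes at 24 h throughout. On the log2 scale, 302 genes were called without a filter, 231 by DESeq2 (105 shared with edgeR), 260 at an adjusted p under 0.05, 45 with the 24 h libraries in 1 fit, 219 with title runs as a block and 21 without title run 1. On the linear scale these were 392 without a filter, 136 with the 24 h libraries and 131 without title run 1. All 24 libraries as labelled gave 0 and 0 genes, an ARC interaction of 0.46 and an ARC excess of 124.6 CPM, and by DESeq2 2 genes and an ARC interaction of 0.43. With both doubtful libraries kept there were 1 and 1 genes, with 0.85 and 146.1 CPM for ARC. With AII + EGF replicate 6 kept there were 1 and 3 genes, with 2.31 and 159.2 CPM, and with AII replicate 6 kept 1 and 5 genes, with 1.17 and 190.7 CPM. With near-identical libraries kept there were 2 and 35 genes, and ARC was at 2.15 (edgeR adjusted p 0.172). All 12 libraries of title runs 4 and 5 gave 2 and 46 genes.

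Reversals among named genes occurred only with such libraries. With all 24, the interaction was −0.11 for VGF, −0.71 for ISM1, 0.051 for UNC5C, −0.12 for NPTX2 and 0.35 for TXNIP, whose excess was 28.3 CPM, and by DESeq2 these 5 interactions were −0.099, −0.73, 0.034, −0.13 and 0.34. ISM1 was at −0.22 with both doubtful libraries kept, and TXNIP had an excess of 16.3 CPM with near-identical libraries kept. The cause was not tested. Of the named genes, 10 of 31 log2 calls and 36 of 51 linear calls passed within title runs 4 and 5. No analysis paired by replicate number was possible because these numbers follow deposition order and mark no shared culture or day. With the title run as a block in their place, ARC was at 2.69 and 101 of the 219 genes were among the 109.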
